A study of Mus musculus with 4 samples.

Results

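The vascular genes described here are 10 ligands, receptors and surface proteins of the liver's blood vessels, read across lobule zones and across 2 stages of diet-induced fatty liver disease. The group was fixed by symbol as 10 of the 31253 features in the matrices. It holds 4 genes of the sinusoidal endothelium (Stab1, Stab2, Clec4g, Lyve1), 5 of venous and pericentral endothelium (Vwf, Thbd, Rspo3, Wnt2, Wnt9b) and Pecam1, which marks endothelium of every vessel. The libraries were 10x Visium sections of mouse liver that was snap-frozen in OCT, an assay whose slide spots each take up RNA from a handful of adjacent cells. MAFL sections (MAFL-1 and MAFL-2) came from the model labelled MAFL on a diet labelled WD for 8 weeks, and MASH sections (MASH-1 and MASH-2) from the model labelled MASH on the same diet for 16 weeks. Strain, sex and age are not given in the sources used here, all 4 sections received the diet, and model and weeks of diet change together, so they cannot be told apart. Nothing in the labels ties the 2 sections of a group to different mice, so a p-value here speaks of the spread among sections, which may be technical. Values of 4 sections are listed below as MAFL-1 and MAFL-2, then MASH-1 and MASH-2.

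Blood enters the liver lobule at the portal tract, flows through sinusoids and leaves by the central vein. Sinusoidal endothelial cells are fenestrated and carry scavenger receptors, while the endothelium of and around the central vein secretes Wnt ligands and the R-spondin Rspo3, which keep beta-catenin target genes such as Glul switched on in neighbouring hepatocytes. Signals of this kind, sent from vessel to parenchyma, are called angiocrine.

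In RefSeq's annotation of GRCm38.p6, the assembly also known as mm10, the members are protein-coding genes that lie apart from each other. Among the ligands, Wnt2 is at chr6:17985474-18032772, Wnt9b at chr11:103727362-103775272 and Rspo3 at chr10:29453106-29535867. The venous surface and clotting genes are Vwf at chr6:125552948-125686679 and Thbd at chr2:148404471-148408188, and Pecam1 is at chr11:106654213-106715281. The sinusoidal receptors are Stab1 at chr14:31139017-31168651, Stab2 at chr10:86841194-87008038, Clec4g at chr8:3707066-3720695 and Lyve1 at chr7:110850607-110862953. RefSeq promoter windows of 250 bases before the start were held for 5 members (Stab1, Stab2, Clec4g, Wnt2, Wnt9b). Those of the 2 Wnt ligands, whose transcripts both leaned to the pericentral side, are shown to set them side by side, 5′ to 3′ on the gene's strand (minus in both), with capitals marking GATAA or its reverse complement TTATC, the letters bound by GATA factors such as Gata4 of sinusoidal endothelium. The Wnt2 window is chr6:18030446-18030695 and the Wnt9b window chr11:103749822-103750071; the transcript starts they precede lie 2327 and 25451 bases inside the gene spans given above.
Wnt2: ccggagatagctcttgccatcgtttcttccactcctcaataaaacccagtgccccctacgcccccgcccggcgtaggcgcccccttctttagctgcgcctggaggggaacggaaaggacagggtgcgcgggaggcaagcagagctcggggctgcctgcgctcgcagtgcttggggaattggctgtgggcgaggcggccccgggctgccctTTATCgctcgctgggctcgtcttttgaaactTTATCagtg
Wnt9b: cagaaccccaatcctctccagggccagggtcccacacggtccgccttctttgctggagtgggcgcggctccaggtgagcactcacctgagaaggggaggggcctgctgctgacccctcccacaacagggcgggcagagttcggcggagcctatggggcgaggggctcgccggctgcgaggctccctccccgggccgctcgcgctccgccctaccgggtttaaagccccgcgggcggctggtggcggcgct
The Wnt2 window held 2 matches, both close to that start, and the Wnt9b window and those of the other 3 members held 0. Across all 32851 RefSeq windows of this length, 22.6% held at least 1 match on either strand and 4.28% held 2 or more. The 2 ligands thus differed in these letters, which describes the sequence and no binding.

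Between 1862 and 2467 spots per section were kept, 8246 in total, with 32249289 to 63808230 UMIs per section, where a UMI is 1 captured transcript molecule. Levels are given as CPM, a gene's UMIs divided by those of the section or class and scaled to a total of 1000000. Spots were ranked within each section by the log2 ratio of Cyp2f2 (periportal) to Cyp2e1 (pericentral) UMIs and split into 3 classes of equal size; 6.87 to 8.93% of the spots lay within 0.1 log2 of a border. The median depth of a spot was 15626 UMIs pericentrally and 15499 UMIs periportally in MAFL-1, but 15755 and 34028 in MASH-2, so 2 further scales are given below. Genes that took no part in the ranking followed it: all 12 hepatocyte Wnt targets of a list including Axin2, Glul and Oat were higher in the pericentral class. Bile duct, fibroblast and mesothelial genes were most abundant in MASH-2, where the 5 bile duct genes summed to 300.4 CPM against 66.1 to 90.7 in the other sections, and results without MASH-2 are given where they differ. Pairs of libraries shared 1182 to 1725 barcodes, which in this assay name positions on a slide.

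Wnt2 and Rspo3 had the steepest pericentral gradients of the tested members, on every scale. Wnt2 encodes a Wnt ligand made by pericentral sinusoids and the central vein. Its pericentral levels were 5.64, 3.22, 6.18 and 8.13 CPM in the 4 sections, and its periportal levels 1.29, 1.26, 1.35 and 1.15 CPM. Every pericentral level lay above every periportal one, and the periportal level was almost the same in all 4. edgeR's quasi-likelihood test with the section as a block gave a log2 fold change of 2.19 ± 0.18 (SE, 4 sections, adjusted p = 8.82e-13). Rspo3, the secreted amplifier that binds Lgr receptors and protects Frizzled from removal, had 3.28, 4.79, 7.51 and 12.5 CPM pericentrally and 1.19, 2.02, 2.24 and 2.75 CPM periportally. It too was higher pericentrally in 4 of 4 sections, by a log2 fold change of 1.75 ± 0.15 (adjusted p = 5.25e-12).

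Wnt9b, the second central vein Wnt, was close to the detection limit. It had 8, 8, 16 and 19 UMIs pericentrally against 3, 3, 8 and 2 periportally in the same order of sections, and it did not pass edgeR's filter on low counts. DESeq2, which applies a filter of its own, put its log2 fold change at 2.11 with an adjusted p of 0.0042. Along 10 bins of equal spot number from the central to the portal end, its mean CPM over the 4 sections was highest in the fourth bin (1.305) and lower in the first (0.63), while that of Wnt2 fell from 6.28 in the first to 0.86 in the tenth. Rspo3 held between 6.21 and 7.80 CPM over the first 5 bins and dropped to 2.03 in the tenth. With so few molecules per bin, the bin profile of Wnt9b is a description only.

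The 2 venous surface and clotting genes had shallower gradients. Vwf, the platelet-tethering glycoprotein of large-vessel endothelium, had 9.29, 9.08, 9.59 and 25.04 CPM pericentrally and 7.44, 5.38, 6.34 and 10.2 CPM periportally. MASH-2 stood apart from the other sections in both classes. The log2 fold change was 0.78 ± 0.10 (adjusted p = 1.33e-07), and on the other scales 0.25 (endothelial sum, adjusted p = 0.0263) and 0.30 (number of spots, adjusted p = 0.109). Thbd, the thrombin receptor of endothelial surfaces, ranged from 2.39 to 7.30 CPM pericentrally and from 2.02 to 4.45 CPM periportally. It was higher pericentrally in 4 of 4 sections (log2 difference 0.45 ± 0.14, adjusted p = 0.0165). This call was lost without MASH-2 (0.39, adjusted p = 0.124), without MASH-1 (0.42, adjusted p = 0.117) and with DESeq2 (0.43, adjusted p = 0.213). It was also lost when every spot was thinned to 5000 UMIs. Platelets and megakaryocytes also hold Vwf RNA; their markers Pf4 and Itga2b summed with 3 others to 5.36 to 9.58 CPM per section, neither of these 2 was called between zones, and the part of platelets in the Vwf values was not tested.

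**Figure D1:**
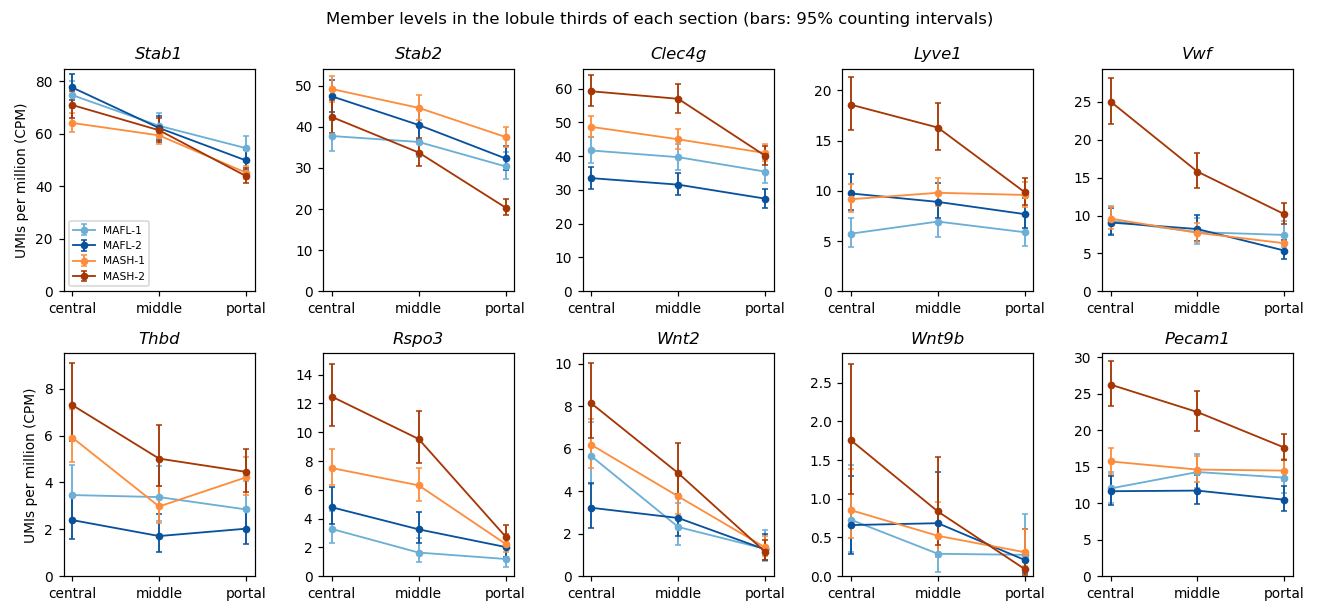
Levels of the 10 genes in the 3 lobule classes of each section (CPM on the y axis from 0, a separate scale for each gene; points are single sections, joined by lines; bars are exact 95% Poisson intervals, which cover counting error only). Wnt2 fell to between 1.15 and 1.35 CPM in the portal class of all 4 sections, whereas the Lyve1 and Pecam1 lines of MAFL-1 and MASH-1 were nearly flat.

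The 4 sinusoidal receptors were also higher pericentrally. Stab1, a scavenger receptor that clears modified proteins, had 74.7, 77.7, 64.1 and 71.0 CPM pericentrally and 54.5, 49.9, 45.2 and 43.9 CPM periportally, without overlap (log2 fold change 0.54 ± 0.05, adjusted p = 1.55e-11). Its relative Stab2, which takes up hyaluronan, had 37.8 to 49.2 CPM pericentrally and 20.4 to 37.5 CPM periportally, and was higher pericentrally within each of the 4 sections (0.54 ± 0.06, adjusted p = 1.34e-07). Clec4g, the C-type lectin LSECtin, had 41.7, 33.5, 48.7 and 59.2 CPM pericentrally and 35.4, 27.4, 40.9 and 40.1 CPM periportally (0.30 ± 0.05, adjusted p = 1.60e-05). Lyve1, a hyaluronan receptor shared with lymphatic endothelium and some macrophages, was higher pericentrally in 2 of 4 sections. Its log2 fold change of 0.30 ± 0.11 (adjusted p = 0.0399) came mostly from MASH-2, with 18.6 CPM pericentrally and 9.86 periportally, and it was 0.07 without that section (adjusted p = 0.737); its adjusted p was 0.144 without MAFL-2, 0.266 with DESeq2 and 0.0665 with library totals. Pecam1, an adhesion molecule of endothelial junctions, did not pass the test (0.17 ± 0.08, adjusted p = 0.115), though it did with the 6-gene zone score (0.29, adjusted p = 0.00818) and without MAFL-1 (0.25, adjusted p = 0.0317).

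In all, 8 of the 9 members tested were higher in the pericentral class and none was lower, beside 23.5% of the 12106 genes tested that were called (11.9% higher, 11.6% lower). The median log2 fold change was 0.42 over the 4 sinusoidal members and 1.26 over the 4 venous members tested, against -0.01 over all genes. These values are relative to all RNA of a class. The 2 other scales, the sum of 8 pan-endothelial genes and the number of spots, moved the median of all genes to -0.50 and -0.42. On them Wnt2 (1.68 and 1.72) and Rspo3 (1.21 and 1.22) were still called higher, and Stab1 (0.05 and 0.14) and Stab2 (0.05 and 0.15) no longer passed. Clec4g (-0.19 and -0.10), Lyve1 (-0.22 and -0.16), Thbd (-0.07 and -0.03) and Pecam1 (-0.34 and -0.27) changed sign. Of these, Clec4g (adjusted p = 0.0167), Lyve1 (0.0466) and Pecam1 (0.00044) were called lower pericentrally in edgeR on the endothelial scale, and none on the spot scale, which was chosen after seeing the data. Of the 12106 genes tested, 10310 were called lower and 224 higher on the endothelial scale, and 6618 lower and 184 higher on the spot scale. Being called lower was thus the common outcome for genes in general. Relative to all RNA the endothelial sum itself was higher pericentrally, which moved the median of all genes to -0.50. A call of lower on that scale is therefore relative to this sum.

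**Figure D2:**
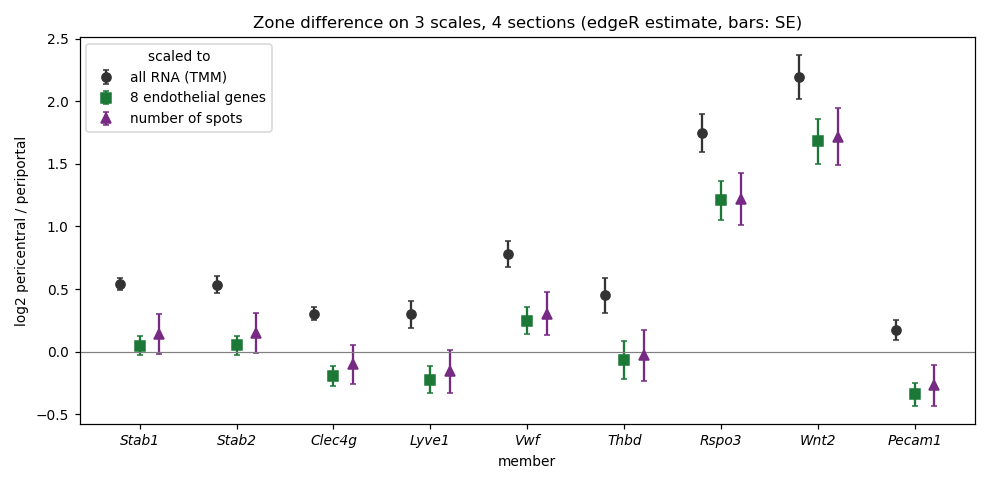
Log2 ratio of pericentral to periportal levels for the 9 tested genes, estimated by edgeR over 4 sections on 3 scales (circles, all RNA; squares, the sum of 8 pan-endothelial genes; triangles, the number of spots; bars are SE). Only the Wnt2 and Rspo3 estimates lay above 1 on all 3 scales, and those of Clec4g, Lyve1, Thbd and Pecam1 crossed 0.

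Set against each other, the venous members made up more of the endothelial signal near the central vein. The summed CPM of the 4 sinusoidal members over that of the 5 venous members was 7.14, 8.36, 5.70 and 3.49 pericentrally and 9.68, 10.8, 9.22 and 6.14 periportally. It was lower pericentrally in each section, and both MASH ratios lay below both MAFL ratios in each of the 2 classes. Sums are led by Stab1 and Vwf; with each gene weighted equally (mean log2 level of the sinusoidal minus that of the venous members) the groups overlapped periportally, at 3.14 and 3.21 in MAFL and 3.18 and 2.86 in MASH. Over whole sections it was 8.48, 9.08, 7.21 and 4.60. The sinusoidal sum was nearly the same throughout (141 to 152 CPM), and the venous sum was 17.0, 15.6, 21.1 and 32.1 CPM. No test was made on these sums, and for 2 sections against 2 an exact two-sided permutation test cannot go below p = 0.333.

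The middle class did not differ from the mean of the outer ones for any of the 9 members tested in edgeR (0.0248% of all genes were called; 3 members, Rspo3, Thbd and Wnt2, had an unadjusted p under 0.05, and DESeq2 called 0). With the 6-gene zone score 1 member, Vwf, was called lower in the middle (-0.57, adjusted p = 0.0288). Profiles over the 40 bins of the 4 sections, centred within each section, were compared by Pearson correlation with 4085 genes of at least 20 CPM. The genes nearest to Wnt2 were hepatocyte genes of the pericentral side, Cpox (r = 0.94), Cyp2c54 (0.94) and Gulo (0.94). Vwf was nearest to Fabp4 (0.89), a lipid-binding protein of capillary and venous endothelium, then to Ubb (0.80) and Acads (0.79). Those nearest to Rspo3 were Gstz1 (0.88), Hint2 (0.87) and Cyp2c38 (0.87), and those nearest to Wnt9b were Glt1d1 (0.75), Eps8l2 (0.71) and the glutamate transporter Slc1a2 (0.70). Stab1 was nearest to Sord (0.93), Stab2 to Neat1 (0.93) and Clec4g to Lars2 and Stab2 (both 0.83). For Lyve1 (Tra2b, 0.66), Thbd (Mtch1, 0.64) and Pecam1 (Zmat2, 0.64) no gene came closer. Bins of a section share library and depth, so these coefficients are descriptions.

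Other genes of the pathway and of the vessels were read from lists. Of the Wnt and R-spondin receptors, 5 of 12 were higher pericentrally and 2 lower. Lgr5, the high-affinity R-spondin receptor, stood 2.46 higher on the log2 scale, the Frizzled-removing ligases Rnf43 and Znrf3 stood 0.74 and 0.42 higher, and Lgr4 fell by 0.26. Of 14 other ligands and modulators 5 were tested and Wif1, a secreted Wnt antagonist, was the one called (1.99 higher); Wls, the Wnt carrier, was not called (adjusted p = 0.287). Rspo2, Rspo4 and Dkk1 had 0 UMIs in every section. All 12 hepatocyte targets were higher, with a median of 2.20, among them Sp5 (2.85), Rhbg (1.96), Axin2 (1.89) and Notum (1.78). On the scales that shifted all genes by 0.42 or more downward, list genes with smaller positive values lie near or below 0. Of 9 intracellular genes Gsk3b was higher (0.25) and Tcf7l1 lower (-0.43).

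The 4 further genes of pericentral endothelium were all higher: Cdh13 (1.40), Kit (1.44), Selp (0.90) and Fabp4 (0.68). Of 6 genes of periportal endothelium 5 were lower, among them the arterial genes Gja5 (-2.02) and Dll4 (-0.79). Of 12 other sinusoidal genes 7 were higher and none lower, with a median of 0.32, as for Oit3 (0.56) and the angiocrine signal Bmp2 (0.69), and of 12 pan-endothelial genes 7 were higher (median 0.31; Eng 0.77, Kdr 0.42). Among other angiocrine signals Edn1, encoding the vasoconstrictor endothelin, was higher (0.83) and Esm1 lower (-0.77). Capillary-type genes gave 1 higher, the venular chemokine receptor Ackr1 (1.17), and 3 lower, Cd34 (-0.98), Vcam1 (-0.51) and Ly6a (-0.46). Markers of other cells moved along this axis too: all 5 bile duct genes, 3 of 4 tested smooth muscle genes, 3 of 5 Kupffer cell genes and 3 of 7 macrophage genes were lower pericentrally. Their part in the members' values was not tested. In these bulk sums of spots, fewer cells of a type and less RNA per cell cannot be told apart.

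Between MASH and MAFL no member was called by edgeR over whole sections. For 7 of the 10 members both MASH values lay above both MAFL values, as for 34.1% of all genes tested, and 3 of these, Rspo3, Thbd and Pecam1, had an unadjusted p under 0.05. Rspo3 had 2.05 and 3.28 CPM in MAFL and 5.02 and 6.93 CPM in MASH (mean 2.66 ± 0.87 and 5.97 ± 1.35, SD, n = 2 each), without overlap, and a log2 fold change of 1.04 ± 0.29 (SE; edgeR adjusted p = 0.143). Thbd had 3.22 and 2.05 CPM in MAFL and 4.34 and 5.29 CPM in MASH (0.77 ± 0.26, adjusted p = 0.197). Pecam1 had 13.2 and 11.2 CPM in MAFL and 14.9 and 21.0 CPM in MASH (0.44 ± 0.18, adjusted p = 0.243). DESeq2 called 0 of the 10 members, and edgeR called 0.456% of the 13593 genes tested. Rspo3 passed when the filter on low counts was dropped (adjusted p = 0.00303), a setting under which 1153 genes were called instead of 62.

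The remaining members had larger p-values. Wnt2 had 3.10 and 2.33 CPM in MAFL and 3.49 and 3.84 CPM in MASH (0.33 ± 0.24, adjusted p = 0.475), and Wnt9b between 0.43 and 0.70 CPM (14 to 34 UMIs per section; adjusted p = 0.752). Vwf had 8.19 and 7.42 CPM in MAFL, 7.71 CPM in MASH-1 and 15.3 CPM in MASH-2. Its log2 fold change of 0.44 ± 0.29 (adjusted p = 0.444) was carried by MASH-2 and came to -0.06 without it. Clec4g had 38.9 and 30.6 CPM in MAFL and 44.4 and 49.3 CPM in MASH (0.33 ± 0.16, adjusted p = 0.304), and Lyve1 6.17 and 8.71 CPM against 9.53 and 13.7 CPM (0.52 ± 0.23, adjusted p = 0.274). Stab1 was the one member lower in both MASH sections, with 64.2 and 62.5 CPM in MAFL and 55.0 and 55.2 CPM in MASH (-0.30 ± 0.15, adjusted p = 0.310). Stab2 values overlapped (34.8 and 39.6 against 43.1 and 29.3 CPM).

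Counting Stab1, groups did not overlap for 8 of the 10 members, beside 52.3% of all genes tested (34.1% higher and 18.2% lower in MASH). On the scale of UMIs per spot, which moved the median of all genes to 0.57, 7 members were called higher in MASH and Stab1 and Stab2 changed sign (0.27 and 0.42, adjusted p = 0.396 and 0.162). On that scale 4773 of the 13593 genes tested were called higher and 71 lower. On the endothelial scale, with a median of -0.27, 0 members were called. The median depth of a spot was 15431 and 19671 UMIs in MAFL and 25291 and 20133 UMIs in MASH, and its part in the values per spot was not tested.

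**Figure D3:**
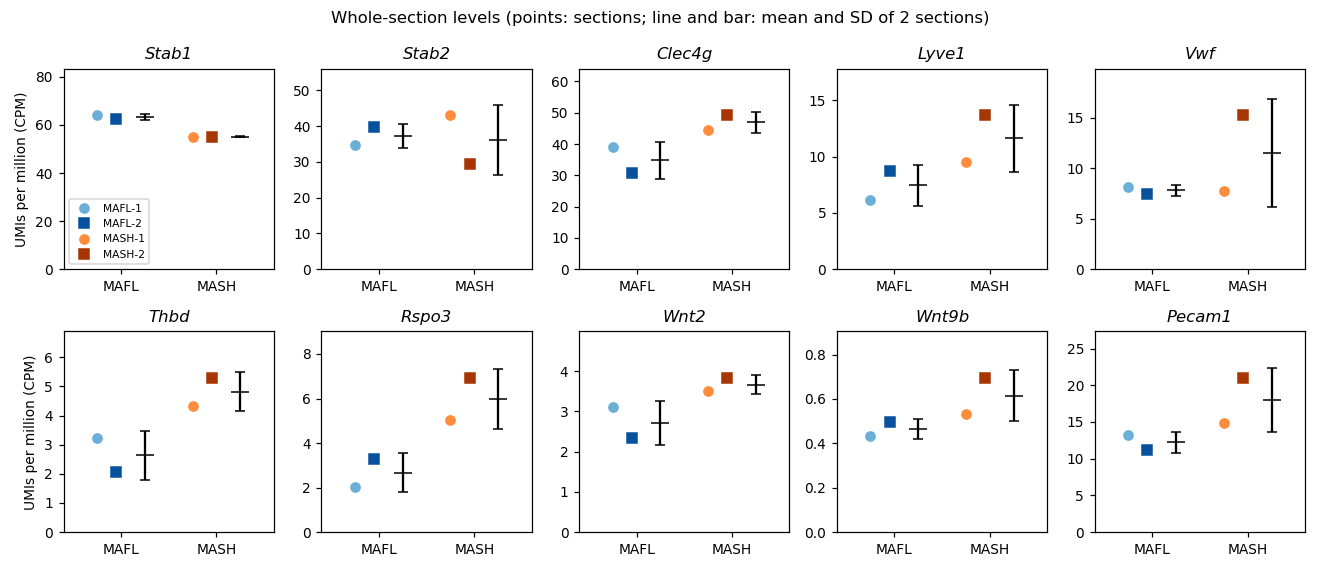
Whole-section levels of the 10 genes (CPM on the y axis from 0; each point is 1 section, circles for replicate 1 and squares for replicate 2; black lines and bars are the mean and SD of 2 sections). Both MASH sections lay above both MAFL sections for 7 of the 10 genes (34.1% of all genes tested did so), both lay below for Stab1, and the MASH mean of Vwf rested on 1 section at 15.3 CPM.

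Within the lobule classes the group difference of Rspo3 was 1.14 ± 0.29 pericentrally (adjusted p = 0.113), 1.56 ± 0.35 in the middle (adjusted p = 0.112) and 0.52 ± 0.37 periportally (adjusted p = 0.490), in edgeR. In the middle class its levels were 1.64 and 3.25 CPM in MAFL against 6.31 and 9.53 CPM in MASH. No member was called in any of the 3 classes, where 0.635%, 0.512% and 1.28% of all genes were (in the periportal class 0.913% higher); 3, 3 and 1 members had an unadjusted p under 0.05, and DESeq2 called 0 in each. Thbd (1.04, adjusted p = 0.124) and Pecam1 (0.67, adjusted p = 0.179) were the others pericentrally. Without MASH-1 the pericentral comparison called 5 members, Rspo3, Thbd, Pecam1, Lyve1 and Vwf, and 1851 genes in place of 75; there MASH-2 alone stood for its group and was assumed to vary like the MAFL sections.

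An interaction term asked whether the zone gradients of MASH differed from those of MAFL. None of the 10 members was called in edgeR, against 0.533% of all genes, and none had an unadjusted p under 0.05. DESeq2 called 0 of the 3 members to which it gave an adjusted p. The gradients in MASH minus those in MAFL were 0.65 ± 0.39 for Wnt2 (adjusted p = 0.679), 0.58 ± 0.32 for Rspo3 (0.649), 0.37 ± 0.21 for Vwf (0.649) and 0.29 ± 0.16 for Pecam1 (0.649). Without MASH-2 they were 0.44, 0.44, 0.07 and 0.14, and the median over the 10 members went from 0.29 to 0.039. Thinning to equal depth turned Rspo3 to -0.62, and UMIs per spot turned Vwf to -0.21 and Pecam1 to -0.27 and left Wnt2 at 0.11 and Rspo3 at 0.05. The direction held for Wnt2 alone of these 4 under these settings. Stab1 (-0.02), Clec4g (0.08), Lyve1 (0.16) and Stab2 (0.17) were closer to 0, and without MASH-1 Stab2 passed (0.46, adjusted p = 0.0225). Among the list genes edgeR called the Wnt target Oat (0.82, adjusted p = 0.00292) and the sinusoidal transcription factor Maf (0.56, adjusted p = 0.00582) higher. The macrophage gene Lyz2 was called in the other direction. Over all genes the 67 calls of this term became 46 with DESeq2 and 37 after thinning.

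No gene of the vessel or Wnt lists was called between the groups over whole sections. Median log2 fold changes were 0.20 over 12 pan-endothelial genes, 0.34 over 12 other sinusoidal genes, 0.47 over the 4 pericentral endothelial genes, 0.66 over 6 periportal endothelial genes and 0.57 over 9 capillary-type genes, beside 0.01 over all genes. Fabp4 came nearest to the threshold (0.96, adjusted p = 0.0521), and Eng (0.63, adjusted p = 0.141) and Vcam1 (0.99, adjusted p = 0.124) followed. The 12 receptors had a median of -0.23 and the 12 targets one of 0.04. Other cell types moved with the groups: the 7 macrophage genes summed to 183 and 207 CPM in MAFL and 590 and 830 CPM in MASH, with Lyz2 (1.85) and Cd74 (1.91) called, and the 6 stellate cell and fibroblast genes to 189 and 179 against 300 and 474 CPM. Stab1 and Lyve1 are also made by some macrophages, and the part of those cells in the group values was not tested.

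Spots that held a molecule of a venous member were then compared with other spots of the same section and class, after thinning each spot to 5000 UMIs. A Vwf molecule was present in 4.30, 3.82, 4.46 and 8.07% of spots, an Rspo3 molecule in 0.9995, 1.45, 2.81 and 4.98%, and a Wnt2 molecule in 1.199, 0.70, 1.90 and 2.22%. These spots make up strata of only 4 sections, so the tests below rest on related sums. Pooled over the lobule classes of a section, spots with Rspo3 had 30.0, 51.9, 26.5 and 87.0 CPM of Vwf (3 to 40 UMIs) and spots without it 9.19, 7.53, 9.68 and 18.4 CPM. Vwf was higher in 4 of 4 sections, and within classes by a log2 fold change of 1.81 ± 0.26 (edgeR adjusted p = 2.62e-08) that was kept without any one section (adjusted p up to 0.0474) but not called by DESeq2 (1.70, adjusted p = 0.117). It was the 1 member called of 6 tested, beside 1.53% of 7514 genes called, 0.16% higher and 1.37% lower (18 higher and 1 lower with library totals in place of TMM).

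In these Rspo3 spots 3 genes of the pericentral hepatocyte list were higher within the same zone class. Glul, which makes glutamine in the hepatocytes next to the central vein, was 0.76 higher within classes. Pooled over the classes it had 420.0, 503.7, 861.8 and 941.3 CPM against 178.5, 271.2, 355.4 and 390.0 CPM, values that also carry the zone difference, since most Rspo3 spots were pericentral or middle. Slc1a2 (0.73), Oat (0.37), Fabp4 (0.83), Eng (0.60) and the fibroblast proteoglycan Dcn (0.39) were also called higher. By size so were the matricellular gene Ccn2 (1.17) and the immunoglobulin gene Igha (1.002). Over all genes 12 were called higher in the main fit, 10 without MAFL-1 and 14 without MASH-1. Only 4 were without MAFL-2, 2 without MASH-2 and 1 with DESeq2, so most of the calls named here were lost there. Stab1 (-0.10), Stab2 (-0.15) and Clec4g (0.01) were not called, beside a median of -0.13 over all genes. The fourth sinusoidal member, Lyve1, stood higher (0.95 ± 0.35), as did Pecam1 (0.80 ± 0.30), without a call (edgeR adjusted p = 0.184 for each). With Vwf, these were the 3 of 6 members tested that had an unadjusted p under 0.05.

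Spots with Vwf gave a similar picture. Pecam1 was 0.84 ± 0.22 higher within classes (adjusted p = 0.00776), with, pooled over the classes, 30.2, 14.1, 25.9 and 48.3 CPM against 14.1, 12.5, 15.3 and 22.2 CPM, and was the 1 member called of 5 tested, where 3.33% of 7716 genes were called, 1.01% higher and 2.32% lower (117 and 48 genes with library totals). Without MASH-2 no member was called (Pecam1 0.68, adjusted p = 0.472). Of the pan-endothelial genes tested 4 of 9 were higher (Eng, Ptprb, Egfl7, Tie1), and of the Wnt targets 7 of 9, among them Slc1a2 (0.92), the ammonium carrier Rhbg (1.17) and Cyp1a2 (0.37). By size the called genes were led by Mgp (1.95), an inhibitor of vessel calcification, and by the haemoglobin genes Hba-a1 (1.93), Hbb-bs (1.81), Hbb-bt (1.76) and Hba-a2 (1.74), which are RNA of red blood cells; the part of blood in these spots was not tested. Rspo3 itself had 6.98, 19.7, 16.7 and 38.9 CPM in spots with Vwf and 1.78, 2.46, 5.44 and 8.37 CPM in spots without, but with 3 to 29 UMIs it did not pass the filter.

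**Figure D4:**
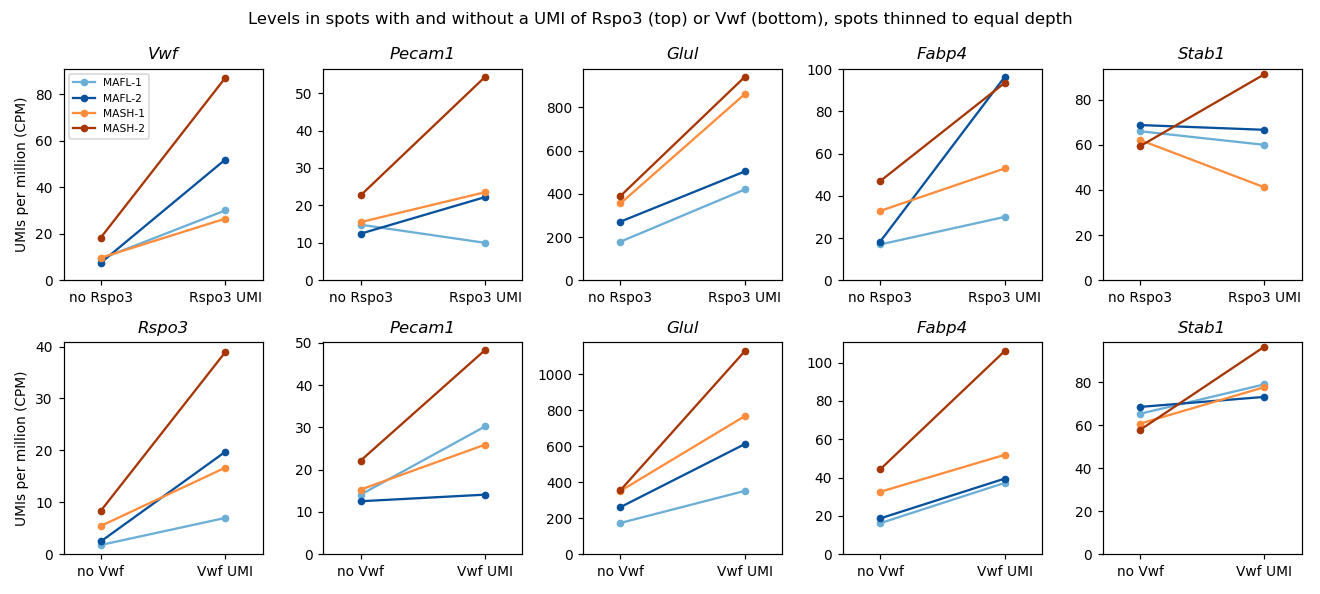
Levels (CPM, y axes from 0) in spots without and with a UMI of Rspo3 (upper row) or Vwf (lower row) after thinning to 5000 UMIs per spot, with 1 line per section over all lobule classes. Vwf, Glul and Fabp4 were higher in Rspo3 spots of all 4 sections, and Stab1 was higher in MASH-2 alone.

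Wnt2 and Rspo3 shared no spot at this depth, where both were scarce. Of 8130 spots, 207 held Rspo3, 124 held Wnt2 and 0 held both. This allows a share of up to 1.45% of the Rspo3 spots and 2.42% of the Wnt2 spots. Vwf was in more spots (414), and 37 spots held Rspo3 and Vwf (17.9% of the Rspo3 spots and 8.94% of the Vwf spots). Because Vwf was in 414 spots and Wnt2 in 124, the counts of 37 and 0 cannot be compared directly. With all UMIs 59 of 8246 spots held both Rspo3 and Wnt2, 8.26% of 714 Rspo3 spots and 10.9% of 540 Wnt2 spots. The count of 0 thus holds at the thinned depth only. Whether the 2 ligands shared spots less often than at random was not tested. No member was called in spots with Thbd (6 tested; 3 with an unadjusted p under 0.05), Wnt2 (6 tested; 1) or Wnt9b (8 tested; 0) by edgeR, where 3.59% (0.0134% higher, 3.58% lower), 0.41% (all lower) and 1.63% (0.0775% higher, 1.55% lower) of all genes were called; DESeq2 called 0 members in Thbd and Wnt2 spots and gave no adjusted p in Wnt9b spots. With library totals these counts of genes came to 2, 1 and 10, all higher. Vwf was nearest to a call in Thbd spots (1.02 ± 0.34, adjusted p = 0.0719). The genes named by rule in these comparisons were Aldh2, mt-Nd4, Gnmt, Rpl41 and Apoc4 in Thbd spots (-0.23 to -0.24) and Alb, Hpx, Scd1, Trf and Fth1 in Wnt2 spots (-0.29 to -0.31), all lower. The median over all genes was itself -0.23 in Thbd spots and -0.21 in Wnt2 spots, so these values lie at or not far below it. With library totals that median was 0.0046 and -0.0033. Spots with Wnt9b numbered 6, 5, 11 and 10 in the 4 sections, but the test rests on 13 of them in 2 strata, the pericentral classes of MASH-1 and MASH-2, and on none from MAFL. There the immunoglobulin genes Ighm (3.66) and Igkc (1.26) and the haemoglobin genes Hbb-bt (1.09), Hba-a2 (1.09) and Hba-a1 (1.02) were called higher. None of the 10 Wnt targets tested was called in them (median 0.17, beside -0.52 over all genes). The part of blood in these spots was not tested.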

How the data were processed

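The 4 mouse liver sections were read from gene-by-spot matrices of raw UMI counts, made by the authors and deposited unnormalised (per the file headers, the software was Space Ranger 1.2.2; per the submitters' processing notes, the genome was mm10). Spots under 500 UMIs were left out. Spots were split per section by log2((Cyp2f2 + 1)/(Cyp2e1 + 1)) into 3 classes, and counts were summed per section and class. Sums were tested with edgeR 4.0.16 in R 4.3.3 (TMM, filterByExpr, robust quasi-likelihood test, Benjamini-Hochberg over all genes tested, 0.05 as the threshold), with the section, or for spot classes the section and class, as a block. DESeq2 1.42.0 served as an alternative. For spot classes each spot was thinned to 5000 UMIs, shallower spots were left out, and a section and class needed 5 spots with the gene. Counting intervals and floors (3 counts) cover counting error only. The scripts were tested on simulated data. The members, lists and tests were chosen with earlier results of these data known. Named were the members, up to 4 genes per list with the smallest p, the 3 genes most alike in bin profile (mean of at least 20 CPM) and the 5 highest log2 fold changes among called genes of that mean in each spot comparison. Alternatives were other normalizations, filters, zone scores and zone widths, thinning, a replicate block and leaving out each section; UMIs per spot was added after seeing the data. Same-numbered sections did not deviate together (Pearson r = -0.19 over 4161 genes), and the main fits used no pairing by number. This single coefficient cannot exclude that the numbers mark a shared batch.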

Additional observations from a re-analysis of the deposited data

Results flagged for a closer look

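The pericentral over periportal log2 ratio of Clec4g was 0.56 in MASH-2, far from the other 3 sections (0.23 to 0.29), and that of Wnt9b was 4.26 in MASH-2 against 1.40 to 1.66 in the others, where it rests on 19 and 2 UMIs. These are 2 of 20 groups of 4 sections looked at for a distant section, of which chance alone marks about 1 in 20. That rate assumes separate groups of like sections, but every group here holds the same 4 sections from 2 conditions. MASH-2 had the highest pericentral over periportal ratio of the 4 sections for each of the 10 members, marked or not. The 2 marks thus lie in the section that was highest for every member. The share of all genes with their highest ratio in MASH-2 was not counted, and the cause of these ratios was not tested. The middle class relative to the mean of the outer classes differed in sign between the groups for 2 of the 10 members. The difference was not tested, and the share of all genes with such a split was not counted. With 2 sections per group, a split of this kind also arises by chance. Stab1 was lower in the middle in both MAFL sections (-0.036 and -0.035) and higher in both MASH sections (0.12 and 0.095), a gap of 0.14 on the log2 scale. Rspo3 was lower in both MAFL sections (-0.45 and -0.067) and higher in both MASH sections (0.37 and 0.32), a gap of 0.61.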

How the results depend on the processing

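With UMIs per spot, 2 members were called between zones (Clec4g -0.10, Lyve1 -0.16, Thbd -0.028 and Pecam1 -0.27 changed sign), 1 in the interaction (Stab1, lower in MASH; Stab2 -0.33, Clec4g -0.48, Lyve1 -0.36, Vwf -0.21, Thbd -0.28, Pecam1 -0.27), and 7 between groups over whole sections (Stab1 0.27 and Stab2 0.42 changed sign), 6 pericentrally, 4 in the middle and 6 periportally. Of all genes tested per spot between groups, 4773 of 13593 were called higher over whole sections. In the pericentral, middle and periportal classes 1156 of 11802, 1294 of 11914 and 5740 of 12480 were. On the endothelial scale Clec4g (-0.19), Lyve1 (-0.22), Thbd (-0.067) and Pecam1 (-0.34) changed sign between zones, as did Clec4g in the interaction (-0.083). There 1 member was called higher between groups in the middle class, beside 93 of 11914 genes higher and 1301 lower. Without the filter on low counts 1, 4 and 1 members were called between groups over whole sections, pericentrally and in the middle, and 2, 2 and 1 in spots with Vwf, Rspo3 and Wnt2. Over all genes 1153 of 18940, 998 of 17304 and 967 of 17395 were called between groups. In those spots 816 of 17159, 396 of 16956 and 397 of 16681 were. DESeq2 called 2 members in Vwf spots and 0 in Rspo3 spots, and the section alone as a block gave 2 in Vwf spots. The 6-gene zone score called 1 member in the middle class (Rspo3 turned to -0.18), and the outer 20% of spots called 1 between groups pericentrally. In the interaction Stab1 turned to 0.043 with library totals, 0.088 with the 6-gene score and 0.16 with the outer 20%, and thinning gave -0.0023 for Stab2, -0.055 for Lyve1 and -0.62 for Rspo3.

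Leaving out 1 section at a time gave 6 to 10 members between zones, 0 to 1 in the interaction, 0 to 5 between groups pericentrally and 0 to 2 in Vwf spots. Single values that changed sign ranged, in the interaction, from -0.094 to 0.082 for Stab1, -0.039 to 0.46 for Stab2, -0.25 to 0.56 for Lyve1 and -0.064 to 2.46 for Wnt9b, over whole sections from -0.53 to 0.17 for Stab2 and -0.056 to 0.79 for Vwf, and from -0.057 to 1.02 for Pecam1 in Thbd spots. The lower end came without MASH-2 except for Stab1 and for Stab2 over whole sections. In each case the cause was not tested. With the replicate block, 0 members were called in the 4 group comparisons. The fits of Wnt9b spots without MASH replicate 1 or 2 could not be run.

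Counts over all genes moved more than those of members. Between zones 2844 genes became 1602 with DESeq2, 1286 after thinning, 10534 on the endothelial scale (224 higher, 10310 lower) and 6802 per spot (184 higher, 6618 lower), and library totals split 2646 calls into 1661 higher and 985 lower against 1435 and 1409. Between groups over whole sections 62 became 586 with DESeq2, 1153 without the filter, 489 and 4844 on the 2 other scales, 0 with the replicate block, and 20 to 535 when 1 section was left out. The interaction's 67 became 7 to 456 with 1 section left out, 37 after thinning and 4009 per spot. The depth limits Wnt9b most, with 14 to 34 UMIs per section.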

Other observations

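Seen over all UMIs rather than thinned spots, Wnt9b shared 36 of its 94 spots with Vwf (38.3%). Rspo3 shared 180 of 714, Wnt2 116 of 540 and Thbd 145 of 643. Vwf itself was in 1265 of the 8246 spots. The shared spots of Wnt9b numbered 4, 5, 13 and 14 in the 4 sections, and after thinning 5 of its 32 spots held Vwf. These shares carry no test.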
